A study of Mus musculus with 2 samples.

Results

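Granule-rich neutrophils were the cells of mouse tumours that carried messages for the proteins of neutrophil specific granules, and 114 of 19476 kept cells met that definition. A cell was kept if it had at least 200 detected genes and at most 15% mitochondrial UMIs, a UMI (unique molecular identifier) standing for 1 captured message. A kept cell was a member if its summed Camp, Ngp and Ltf count was at least 10 UMIs, its S100a8 and S100a9 count at least 10, its C1qa, C1qb and C1qc count under 3, and its Cd3d, Cd3e and Cd3g count 0. The rule thus used measured values: these 11 genes describe the members and support no result. The limit of 10 granule UMIs did not fall in a gap, since 3 CEP and 5 Vehicle members had 10 to 12 granule UMIs and 5 CEP and 15 Vehicle cells that met the other conditions had 7 to 9.

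The data were 1 single-cell library from a cepharanthine group (CEP), named for a plant alkaloid, and 1 from a vehicle group (Vehicle, spelled "Vehide" in the labels). Both were made from dissociated tumours selected on beads for the leukocyte surface protein CD45. Strain, age, tumour line, dose and time of treatment are not given in the sources used here. The design names 5 animals per group, but the labels do not say which animal a cell came from, so each group is 1 sample and no test between groups was possible. All intervals are 95% intervals that cover counting error only.

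Neutrophils make their granules in order while they mature in the bone marrow. Azurophil (primary) granules with myeloperoxidase and elastase are filled in promyelocytes, specific (secondary) granules with lactoferrin, cathelicidin and lipocalin in myelocytes and metamyelocytes, and gelatinase (tertiary) granules in band cells. Transcription of each set stops as the next begins, and circulating neutrophils carry the proteins but little of the messages. Messages for specific granule proteins in a tissue neutrophil are therefore commonly read as a mark of a young cell.

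The genes that defined the members encode cathelicidin (Camp), neutrophilic granule protein (Ngp) and lactoferrin (Ltf), and all lie on chromosome 9. In GENCODE on GRCm38 (mm10), Camp spans 109847379 to 109849617 on the minus strand, Ngp 110419747 to 110423012 and Ltf 111019271 to 111042767 on the plus strand, so the genes lie within 1195.4 kilobases. Their promoters are shown because the rule chose the members by the sum of these genes. Each stretch below comes from the RefSeq window of 250 bases before the gene's start (GRCm38.p6) and is cut where the GENCODE gene begins, and capitals mark matches to the C/EBP letters TTNNGNAA on either strand, a motif of the factor family that includes the granule regulator C/EBP epsilon.
Camp, chr9:109849618-109849706, minus strand: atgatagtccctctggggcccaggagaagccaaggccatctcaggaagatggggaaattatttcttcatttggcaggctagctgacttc
Ngp, chr9:110419558-110419746, plus strand: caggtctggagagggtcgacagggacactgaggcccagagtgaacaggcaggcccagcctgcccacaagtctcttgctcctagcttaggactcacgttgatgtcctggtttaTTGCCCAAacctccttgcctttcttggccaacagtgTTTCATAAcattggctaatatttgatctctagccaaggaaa
Ltf, chr9:111019042-111019270, plus strand: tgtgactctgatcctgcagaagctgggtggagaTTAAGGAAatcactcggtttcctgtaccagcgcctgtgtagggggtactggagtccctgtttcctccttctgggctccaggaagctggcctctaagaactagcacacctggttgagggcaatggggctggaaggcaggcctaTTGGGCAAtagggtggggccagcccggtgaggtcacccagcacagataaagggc
The letters occurred 3 times in the whole 250-base window of Ngp, 2 times in that of Ltf and 0 times in that of Camp. Of 32851 mouse windows of the same length, 36.8% held at least 1 match, so a match is common and is given as a description.

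The CEP library held 34 members among 9544 kept cells, 0.356% (0.247 to 0.497%, exact binomial), and the Vehicle library 80 among 9932, 0.805% (0.639 to 1.0%). The ratio of the shares was 0.442 (0.296 to 0.660). Against only those cells that passed the rule without its granule condition, the shares were 1.87% of 1823 and 3.55% of 2253 cells, a ratio of 0.525 (0.353 to 0.781). Members were thus scarcer in the CEP library both among all cells and among cells of their kind. CD45 selection precedes both denominators, and fewer members and more of other cells cannot be told apart in a share.

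The condition on Cd3 genes, which encode chains of the T cell receptor complex, left out more of the richest cells than it kept in the CEP library, 17 against 12 with 100 or more granule UMIs. There, 21 cells met every other condition but carried Cd3 UMIs, and these were Cd3d alone in all 21 (1 to 4 UMIs). In the Vehicle library 25 such cells were left out, 24 of them with Cd3d alone (1 to 5 UMIs). None of the Cd3d-only cells had a UMI of the T cell receptor genes Trac, Trbc1 or Trbc2, and 1 CEP and 0 Vehicle cells were among the likely doublets. The left-out cells held 51.1% of all granule UMIs of the CEP library and 31.5% of those of the Vehicle library, against 33.9% and 57.2% in the members.

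In the CEP library the share of cells with a Cd3d UMI was higher in bands of higher granule content. Over members and left-out cells together it was 8.33% of 12 cells with 10 to 29 granule UMIs, 21.4% of 14 with 30 to 99 and 58.6% of 29 with 100 or more. In the Vehicle library the same shares were 20.7% of 29, 20% of 25 and 27.5% of 51 cells. C1q-rich cells, those with at least 10 UMIs of the macrophage genes C1qa, C1qb and C1qc, had a Cd3d UMI in 3.29% (CEP, median depth 10017 UMIs) and 3.93% (Vehicle, 11228.5 UMIs), and neutrophils with under 10 granule UMIs and at least 3000 UMIs in 5.91% and 9.22%. What put Cd3d UMIs in these cells was not tested. With Cd3d UMIs allowed, the groups were 55 CEP and 104 Vehicle cells, 0.576% (0.434 to 0.749%) and 1.05% (0.856 to 1.27%), and the ratio was 0.550 (0.397 to 0.762). Ratios between the libraries are therefore given for the members and, for most genes and lists, with the Cd3d-only cells added, whereas stage counts and comparisons with other neutrophils are for the members.

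**Figure D1:**
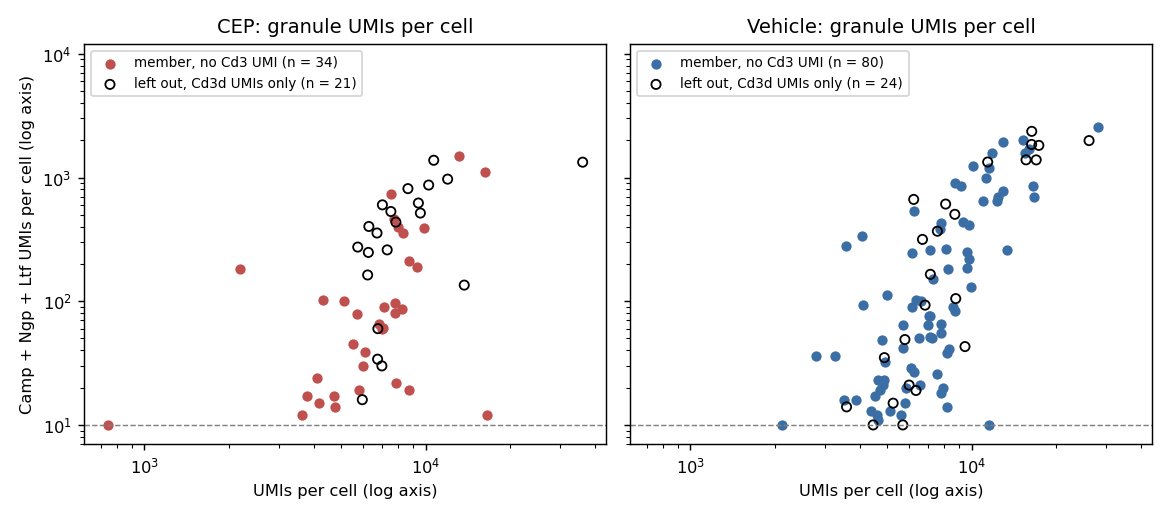
Each point is a cell, with its UMIs (x, log axis) against its summed Camp, Ngp and Ltf UMIs (y, log axis), in the CEP (left) and Vehicle (right) library; filled points are the 34 and 80 members, open points the 21 and 24 cells left out for Cd3d UMIs alone, and the dashed line marks 10 granule UMIs. In the CEP library 17 of the 29 cells with 100 or more granule UMIs are open points, in the Vehicle library 14 of 51.

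The share stayed lower in the CEP library under each setting run. The log2 ratio lay between -0.80, with every cell thinned to 1000 UMIs, and -1.34, with at least 20 granule UMIs, against -1.18 for the rule as given. The plot of shares by setting shows both libraries for the settings that keep all kept cells, or the cells left by the setting, as denominator. The intervals of the libraries did not overlap for the rule as given, and overlapped when cells were thinned.

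**Figure D2:**
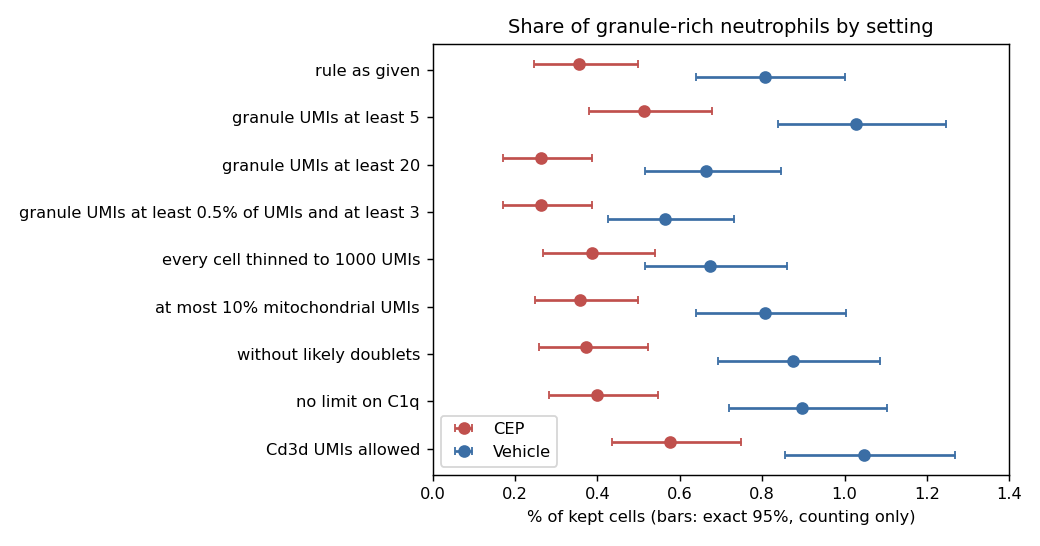
Percent of kept cells that were granule-rich neutrophils (x) in the CEP (red) and Vehicle (blue) library under each setting (y), with exact binomial intervals as bars. The CEP point lies to the left of the Vehicle point in each row, at 0.356% against 0.805% for the rule as given and 0.576% against 1.05% with Cd3d UMIs allowed.

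Members were deep for neutrophils, with a median of 7042.5 UMIs in CEP (742 to 16509) and 7248.5 in Vehicle (2114 to 28204), against 1558 and 1689 in the 1695 and 2090 other neutrophils, the cells that met the same conditions with under 10 granule UMIs and at least 1% S100a8 and S100a9 UMIs. S100a8 and S100a9, the calprotectin subunits, made up a median of 21.4% and 22.1% of a member's UMIs. A minimum of 10 raw UMIs favours deep cells, so depth goes along with membership, and its part in the comparisons with other neutrophils was not tested beyond the deeper comparison cells given below. Mitochondrial UMIs were few, with medians of 0.430% and 0.319%.

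The 5 marker genes of the label were all detected at high levels. Granule UMIs per cell ran from 10 over a median of 72 to 1502 in CEP and from 10 over 87 to 2574 in Vehicle. Ngp was found in every member, Camp in 22 of the 34 members from CEP and 54 of the 80 from Vehicle, and Ltf in 25 and 57. In C1q-rich cells, which should lack these genes, Camp was found in 0.170% and 0.310% of cells and Ltf in 0.744% and 0.930%. Ngp was the most frequent of the 3 genes in 33 of 34 and 79 of 80 members and made up 67.7% and 61.3% of their granule UMIs, on a scale of 3′ UMIs that does not depend on transcript length. The 3 cells with the most Camp gave 66.1% of the CEP and 35.1% of the Vehicle Camp UMIs.

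Ly6g, the surface protein by which mouse neutrophils are sorted, had UMIs in 29 of 34 (CEP) and 71 of 80 (Vehicle) members, at a median of 8 and 7.5 UMIs per cell. Cd177, a surface partner of proteinase 3, was found in 31 and 75 members, at a median of 10.5 and 11.5 UMIs. C1q-rich cells had a Ly6g UMI in 0.850% and 0.659% of cells. After thinning to 1000 UMIs, which left 33 CEP and 80 Vehicle members, Ly6g remained in 63.6% and 60% of members against 6.58% and 6.08% of other neutrophils, and Cd177 in 69.7% and 71.3% against 8.63% and 9.14%.

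The stage was mixed, and the label "immature" holds for granule genes more than for the other stage genes. Cxcr2, the chemokine receptor by which mature neutrophils leave the marrow, had UMIs in 32 of 34 (CEP) and 73 of 80 (Vehicle) members, against 4.36% and 3.31% of C1q-rich cells. Retnlg, a gene of mature neutrophils, had at least 10 UMIs in 31 and 68 members. Cebpe, the transcription factor of specific granule synthesis, had a UMI in 13 of 80 Vehicle members (16.3%, 8.95 to 26.2%) and 2 of 34 CEP members (5.88%, 0.720 to 19.7%). C1q-rich cells had one in 2.38% (Vehicle) and 2.91% (CEP), so the CEP share of cells cannot be told from background at this depth. The 2 CEP members held 4 and 5 Cebpe UMIs, and UMIs per cell were not compared with C1q-rich cells. All 15 members with a Cebpe UMI also had a Cxcr2 UMI.

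Most genes of earlier stages had few UMIs, with the primary granule genes Prtn3 and Cd63 as exceptions. Of the 8 primary granule genes, only these 2 had at least 50 UMIs over both libraries' members. Against other neutrophils, Cd63 was slightly lower in members, with log2 ratios of -0.29 (CEP) and -0.26 (Vehicle). Of the progenitor genes, Kit had 1 UMI in CEP and 0 in Vehicle, Cd34 0 and 1, and Flt3 0 in both, and Gfi1, a factor of early granulocyte commitment, had 0. Progenitor genes, 8 in all, summed to 1, 3 and 2 UMIs in CEP members of rising granule content. Those members had 10 to 29, 30 to 99 and 100 or more granule UMIs. The Vehicle sums were 1, 0 and 2. The primary granule genes Elane (neutrophil elastase) and Mpo (myeloperoxidase) came in CEP from 1 cell, with 35 and 19 UMIs, and in Vehicle had 0 and 1 UMI. Prtn3 had 117 UMIs in 9 CEP members and 77 in 7 Vehicle members, with 90.6% and 45.5% of them in 1 cell. Members with at least 3 UMIs of the primary granule genes Mpo, Elane, Prtn3 and Ctsg in sum numbered 2 of 34 and 3 of 80. Members with at least 3 UMIs of the cycling genes Mki67, Top2a, Birc5, Cdk1 and Ube2c numbered 2 of 34 and 6 of 80, all with 100 or more granule UMIs. Among the cells left out for Cd3d, 1 CEP cell with 36204 UMIs carried 148 Elane, 89 Mpo and 344 Prtn3 UMIs.

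Markers of other cell types were low, though less clearly for monocyte and endothelial genes. The 10 macrophage markers summed to 366 and 235 CPM (UMIs per 1000000 UMIs) in members, against 10465 and 13918 in all other kept cells, with Ms4a7, C3ar1 and Mertk at 0 in CEP and Adgre1 and Mertk at 0 in Vehicle. Of 8 T and NK cell markers 7 were at 0 in CEP and 8 in Vehicle, and the 4 mast cell and basophil and the 4 erythroid markers were at 0 in both. Monocyte markers summed to 757 and 553 CPM, against 783 and 769 in other neutrophils and 2471 and 2477 in all other kept cells. These sums hid opposite directions among the 6 monocyte markers. Ly6c2 was higher in members than in other neutrophils, at log2 2.17 and 2.07. By at least 2-fold, 2 of the markers were lower in CEP and 4 in Vehicle. Endothelial markers summed to 20.8 and 13.9 CPM, against 37.7 and 31.5 in all other kept cells. All of these member UMIs were of Pecam1, with Cdh5, Kdr and Flt1 at 0 in both libraries. Dendritic cell markers summed to 45.7 and 18.5 CPM, epithelial markers to 16.6 and 3.09, and fibroblast markers to 8.32 and 0. B cell markers gave 1 UMI in each library, and eosinophil markers 0 and 1. No member's barcode was among the 136 barcodes that the libraries shared.

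Granule content graded the members along other genes that the rule did not use. In the 3 bands of 10 to 29, 30 to 99 and 100 or more granule UMIs there were 11, 11 and 12 CEP and 23, 20 and 37 Vehicle members, with median depths of 4735, 7002 and 8148 and of 5124, 7024.5 and 9767 UMIs. Lcn2 (lipocalin 2, an iron carrier of specific granules) was at 5107, 11003 and 20120 CPM in the CEP bands and 9547, 12681 and 20611 in the Vehicle bands. Cybb, the catalytic subunit of the phagocyte oxidase, was at 62, 173 and 775 CPM in CEP and 198, 210 and 1096 in Vehicle. Levels were highest in the richest band for both genes and libraries.

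Serpinb1a, an inhibitor of neutrophil serine proteases, was at 46, 160 and 874 CPM in the CEP bands and 114, 163 and 774 in the Vehicle bands. Anxa1 (annexin A1) followed at 2253, 3224 and 6498 and at 2404, 3596 and 7382 CPM. Cebpe UMIs came from the richest band in CEP (89.4 CPM, 2 of 12 cells) and mostly so in Vehicle (168 CPM, 11 of 37 cells, against 0 and 15.5 CPM in the lower bands). Mki67, a cycling gene, was at 139 CPM in the richest CEP band and 178 in the richest Vehicle band, with 15.4 and 0 CPM in the lowest bands.

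Genes of mature neutrophils ran the other way. Il1b (interleukin 1 beta) was at 5509, 2265 and 1212 CPM in the CEP bands and 4770, 2990 and 684 in the Vehicle bands. Csf3r, the G-CSF receptor, was at 571, 480 and 179 CPM and at 717, 606 and 170. Il1r2, a decoy receptor for interleukin 1, was at 1034, 1172 and 696 CPM and at 1053, 1048 and 684. Each was lowest in the richest band of both libraries. Retnlg differed in shape, at 14412, 18024 and 10482 CPM in CEP and 24748, 26947 and 7828 in Vehicle.

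Cxcr2 was at 880, 706 and 487 CPM in the CEP bands and at 611, 637 and 413 in the Vehicle bands, so it was lowest, but present in 11 of 12 and 35 of 37 cells, where granule content was highest. Summed over their lists, tumour-associated genes were at 10508, 5622 and 6270 CPM in the CEP bands and 10730, 9474 and 2216 in the Vehicle bands, and genes induced by interferon-gamma at 2129, 773 and 238 and at 2320, 1545 and 467. With the Cd3d-only cells added, the richest bands of 29 CEP and 51 Vehicle cells were at 17932 and 21745 CPM of Lcn2, 1040 and 1262 of Cybb, 202 and 169 of Cebpe and 753 and 553 of Il1b. CPM values share 1 total, so a band with more granule messages has less room for others. Depth was also higher in the richer bands, and its part was not tested.

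**Figure D3:**
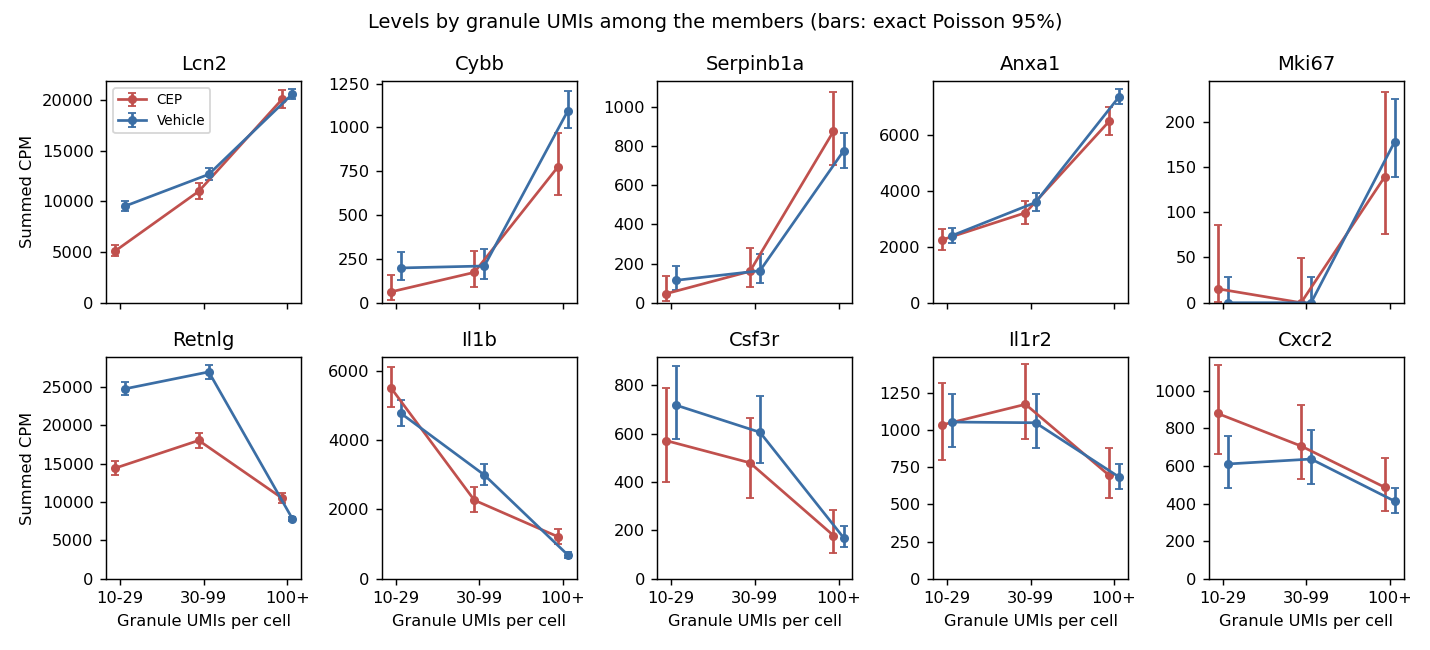
Summed CPM (y, linear axis from 0) of 10 genes in members with 10 to 29, 30 to 99 and 100 or more granule UMIs (x) for CEP (red) and Vehicle (blue), with exact Poisson intervals as bars. Lcn2, Cybb, Serpinb1a, Anxa1 and Mki67 are highest in the richest band, while Il1b, Csf3r, Il1r2 and Cxcr2 are lowest there, for example Il1b at 1212 against 5509 CPM in CEP.

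Set beside other neutrophils of the same library, the members had more messages of specific granules and of immature stage genes, and fewer of the genes that neutrophils carry in tumours. The rule chose the members out of these cells, so the differences are a description. Of 4977 genes with at least 50 UMIs in CEP, 6.15% were at least 2-fold higher and 23.6% at least 2-fold lower in members, with a median log2 ratio over all genes of -0.33. In Vehicle the figures were 6.04% and 26.2% of 5433 genes, with a median of -0.41.

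Of the specific granule genes outside the rule, 6 of 9 measured in CEP and 7 of 10 in Vehicle were at least 2-fold higher, with medians of 1.86 and 2.13. Lcn2 was at 13229.6 and 16795 CPM in members against 1809 and 1882 in other neutrophils (log2 2.87 and 3.16). Pglyrp1, a peptidoglycan-binding protein, was higher by 2.02 and 2.17 on the log2 scale, and Mmp8 (neutrophil collagenase) by 1.86 and 1.69. In each library 2 specific granule genes were lower. Slpi, an inhibitor of leukocyte proteases, was at -1.59 and -0.65. Olfm4, which had no UMI in CEP members, was at -4.70 and -0.29. Of the immature stage genes 8 of 9 and 9 of 10 were at least 2-fold higher, with medians of 2.67 and 3.38. Serpinb1a led them at 428 and 519 CPM against 11.5 and 11.4 (log2 5.21 and 5.50), and Ifitm6 stood at 6918 and 7583 against 512 and 568 CPM (3.76 and 3.74).

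Other genes far higher in members of both libraries included Adpgk (an ADP-dependent glucokinase, log2 3.61 and 3.62) and Aldh2 (aldehyde dehydrogenase, 2.83 and 3.73). So were G6pdx (the first enzyme of the pentose phosphate pathway, 2.69 and 3.05) and Padi4 (the histone-citrullinating enzyme of extracellular traps, 2.53 and 2.53). Prtn3, a primary granule gene, was higher by 5.13 and 2.97, with 90.6% of its CEP and 45.5% of its Vehicle member UMIs in 1 cell. Of the oxidase subunits, 2 of 7 in CEP and 3 of 7 in Vehicle were at least 2-fold higher. Cybb stood at 3.10 and 3.88, Rac2 at 1.07 and 1.07, and Ncf1 at 0.96 and 1.42. Gelatinase and secretory genes were split: Mmp25, a membrane-type protease, was higher by 2.45 and 2.01 and Mmp9 (gelatinase B) by 1.22 and 0.89, while Cd14, a co-receptor for lipopolysaccharide, was at -0.59 and -1.15.

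Tumour-associated genes were lower in members, 15 of 16 in CEP and 14 of 16 in Vehicle by at least 2-fold, with medians of -1.72 and -2.24. Cxcl2, a neutrophil-attracting chemokine, was at 2823 and 2258 CPM in members against 12946 and 11980.3 in other neutrophils (log2 -2.20 and -2.41). Ccl3 and Ccl4, chemokines for monocytes and T cells, were at -3.02 and -4.01 and at -3.40 and -2.29. Ccrl2, an atypical chemokine receptor, was at -3.76 and -3.08 and Cxcr4, the marrow-retention receptor, at -2.09 and -3.49. Inflammatory cytokine genes were lower by at least 2-fold for 11 of 15 and 12 of 15, genes induced by type I interferon for 12 of 24 and 16 of 24, and genes induced by interferon-gamma for 7 of 14 and 12 of 14.

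Against deep cells many of these differences were smaller. With only the 223 CEP and 314 Vehicle other neutrophils of at least 3000 UMIs, the specific granule medians were 1.51 and 1.39, the immature stage medians 2.0 and 2.46, and the tumour-associated medians -1.24 and -1.83. Genes induced by type I interferon had medians of -0.59 and -1.30, from -1.04 and -1.38, and genes induced by interferon-gamma -0.56 and -1.38, from -1.25 and -1.57. Other lists did not come closer to 0, such as the gelatinase list in CEP, at 0.47 from 0.15, and the class I list in CEP, at -0.93 from -0.87. Lcn2 was then higher by 2.32 and 2.47 and Ly6g by 2.79 and 2.02, from 3.72 and 3.15. Retnlg, at 1.33 and 1.36 against all other neutrophils, was at 0.65 and 0.51.

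Transcription factor genes were mostly lower in members, 4 of 11 in CEP and 7 of 12 in Vehicle by at least 2-fold. Cebpb, the C/EBP factor of emergency granulopoiesis, was at 5272 and 4093 CPM against 9916 and 10089.5, and Junb, an AP-1 subunit, at 1555 and 962 against 3416 and 3246. Spi1 (PU.1) was at 869 and 788 CPM against 741 and 754. Of the digestion-induced stress genes 10 of 19 and 14 of 19 were at least 2-fold lower, and these overlap the tumour-associated list in Atf3 and Ier3, and the part of handling was not tested.

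The genes with the lowest ratios had few or no UMIs in members. Ctsk, Mmp12 and Areg had 0 UMIs in members of both libraries, and Arg1, Car4 and Ccl24 had 2, 1 and 1 in CEP and 7, 4 and 4 in Vehicle. Among other neutrophils the same genes had 251, 127, 115, 722, 441 and 258 UMIs in CEP. Whether those came from macrophage messages in neutrophil droplets was not tested. The macrophage markers stood at 1038 and 831 CPM in other neutrophils, against 366 and 235 in members.

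**Figure D4:**
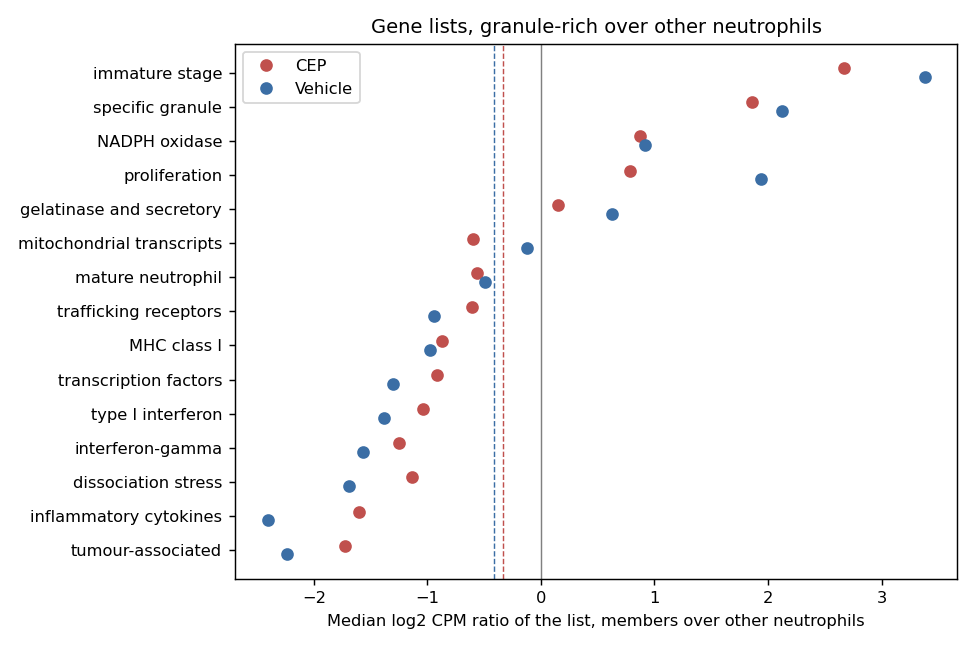
Median log2 CPM ratio of 15 gene lists, members over other neutrophils (x), in the CEP (red) and Vehicle (blue) library, with dashed lines at the median over all genes, -0.33 and -0.41. Of the lists plotted, which leave out cell type markers, the genes of the rule and the primary granule, progenitor and NF-kB lists, the immature stage and specific granule lists lie furthest to the right, at 2.67 and 3.38 and at 1.86 and 2.13, and the inflammatory and tumour-associated lists furthest to the left.

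Between the libraries, specific granule genes outside the rule were mostly lower in CEP members. With UMIs summed over members, of 1699 genes with at least 50 UMIs over both libraries' members, 8.06% were at least 1.5-fold higher and 5.77% at least 1.5-fold lower in CEP, and the median over all was 0.06. Among 9 measured specific granule genes outside the rule, 4 were at least 1.5-fold lower and 0 higher in CEP, with a median of -0.34 (-0.21 with Cd3d-only cells). Lcn2 was at 13229.6 and 16795 CPM (-0.34, -0.40 to -0.29; -0.29 with those cells), in every member of both libraries. Chil3, a chitinase-like protein, was at 112 and 195 CPM (-0.77; -0.94), Cybb at 395 and 738 (-0.90; -0.36), Lyz2 (lysozyme) at 2062 and 3589 (-0.80; -0.53) and Slpi at 254 and 588 (-1.20; -0.81). A single Vehicle cell gave 47.8% of the Slpi UMIs. Hp (haptoglobin), at 2108 and 2029 CPM, and Mmp8, at 457 and 490, had intervals that included no difference. Olfm4, a granule glycoprotein, had 0 UMIs in CEP members and 25 in 3 Vehicle members, but with the Cd3d-only cells added its log2 ratio was 1.26 (0.79 to 1.73).

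The granule genes of the rule are given as a description only, since the rule chose cells by them and its Cd3 condition left out 17 of the 29 richest CEP cells. Camp was at 4839 CPM in CEP (4565 to 5126) and 8778 in Vehicle (8552 to 9009), Ngp at 18768 and 26227, and Ltf at 4099 and 7782, log2 ratios of -0.86, -0.48 and -0.92. With the Cd3d-only cells added the ratios were -0.46, -0.27 and -0.55. Ly6g, at 1389 and 1279 CPM (log2 0.12, -0.07 to 0.30), and Cd177, at 1788 and 1981 (-0.15, -0.31 to 0.01), had intervals that included no difference. With the Cd3d-only cells added, Ly6g was at 0.16 (0.02 to 0.30) and Cd177 at -0.14 (-0.26 to -0.02). Those intervals no longer included no difference, and the 2 genes differed in opposite directions.

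Immature stage genes had a median of -0.22, with 1 of 10 at least 1.5-fold lower, and 0.03 with the Cd3d-only cells added, so the sign was not kept. Cebpe was at 37.4 and 103 CPM from 2 and 13 cells (-1.4, -2.66 to -0.46), and at 0.15 with those cells. Aldh2 moved from -0.54 to 0.03 and Anxa1 from -0.38 to -0.15. Proliferation genes had a median of -0.46 over 5 measured members and 0.28 over 8 with those cells. The gelatinase list had a median of 0.18, with 0 of 8 past 1.5-fold either way.

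Several inflammatory genes were higher in CEP members, with UMIs summed over all bands of granule content. Il1rn, the interleukin 1 receptor antagonist, was at 328 CPM (22 of 34 cells) and 88 CPM (31 of 80 cells), a log2 ratio of 1.90 (1.39 to 2.42), and 1.16 with the Cd3d-only cells. Nfkbia, the inhibitor and target gene of NF-kB, was at 915 and 431 CPM (1.09, 0.82 to 1.35; 1.04 with those cells). Cxcl3 was at 1044 and 533 CPM (0.97; 0.47), Il1b at 2698 and 1969 (0.46; 0.03) and Cxcl2 at 2823 and 2258 (0.32; -0.02). For Il1b and Cxcl2 the difference was thus within 0.03 of none with those cells, and 1 cell gave 23.7% of the CEP Il1b UMIs. Macrophage markers, at 366 and 235 CPM in sum (0.64, 0.24 to 1.03), and monocyte markers, at 757 and 553 (0.45, 0.19 to 0.71), were also higher in CEP members, and their part was not tested.

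Of the 10 measured inflammatory cytokine genes 3 were at least 1.5-fold higher and 1 lower, with a median of 0.33 (0.11 with Cd3d-only cells), and of the 12 tumour-associated genes 3 and 1, with a median of 0.40 (0.22). Ccl4 went against the others, at 137 and 209 CPM (-0.59). With each cell weighted equally (mean of per-cell CPM), the inflammatory and tumour-associated medians were 0.16 and 0.17. By rising granule content, the inflammatory list summed to 14396, 6634 and 6836 CPM in the CEP bands and 13393, 10825 and 2907 in the Vehicle bands. It was thus lower in CEP in the middle band. The tumour-associated sum was higher in CEP only in the richest band, of 12 CEP members. Stress genes were also higher on balance, with 2 of 16 higher, 0 lower and a median of 0.36 (0.21), as were mitochondrial transcripts, with 4 of 8 higher and a median of 0.59 (0.42). Whether handling of the samples shared in the inflammatory difference was not tested.

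Tgm2 (transglutaminase 2) and Tgfb1 (transforming growth factor beta 1) were higher in CEP, at 965 and 255 CPM (1.92) and at 208 and 78.8 CPM (1.4), but 1 cell gave 66.8% and 50% of the CEP UMIs, and the ratios were 1.41 and 1.13 with the Cd3d-only cells. Prtn3 (proteinase 3) was at 486 and 119 CPM (2.03; 3.19 with those cells), with 90.6% of the CEP UMIs in 1 cell; it was found in 9 of 34 and 7 of 80 members, against 18.2% and 15.1% of C1q-rich cells. Hcar2, a receptor for niacin and ketone bodies, was at 511 and 216 CPM (1.24; 0.51 with Cd3d-only cells), Rhob, a small GTPase, at 520 and 253 (1.04; 0.44), Efhd2 at 225 and 120 (0.90; 0.61) and the long noncoding Gm26917 at 511 and 247 (1.05; 0.76). On the lower side, Saa3 (serum amyloid A3) was at 41.6 CPM from 3 CEP cells and 185 from 5 Vehicle cells (-2.09; -1.59). Apobr, Zdhhc3 and Rtn3 were at -1.01, -1.01 and -0.96, and with the Cd3d-only cells at -0.68, -0.79 and -0.44, the last with an interval of -0.93 to 0.00. Ethe1 was at -0.99, and at -0.06 with those cells. Psmb9, an immunoproteasome subunit, was at 125 and 230 CPM (-0.86; -0.57).

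Other lists stayed near the median of all genes. Trafficking receptors had a median of 0.17 (-0.01 with Cd3d-only cells), and Cxcr2 was at 661 and 497 CPM (0.41; 0.25). Mature neutrophil genes had a median of 0.08, with 0 of 14 past 1.5-fold, and -0.06 with those cells. Oxidase genes had a median of -0.06 (-0.05), with Cybb and Ncf1 (-0.66) lower. Transcription factor genes had a median of 0.14 (0.10), with Junb higher (0.69) and Cebpd (-0.66) and Cebpe lower. The class I presentation list was at 0.06 (-0.03).

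Genes induced by type I interferon had a median of 0.14 over 10 members (-0.13 with Cd3d-only cells), and genes induced by interferon-gamma -0.22 over 7 members (-0.72). In the latter list, Gbp2, a guanylate-binding protein, was at 129 and 151 CPM (-0.22; -0.71), Irf1 at 195 and 246 (-0.32; -0.73) and Cd274 (PD-L1) at 99.8 and 133 (-0.39; -1.19). Of the genes of the axis named in the series title, protein kinase C zeta, NF-kB and PARP1, only 3 list members had enough UMIs. Their median was -0.23 (0.43 over 4 with Cd3d-only cells). The sum of the whole list had the other sign, at 1148 and 692 CPM (0.73, 0.51 to 0.95), of which Nfkbia made up 915 and 431 CPM. Rel, an NF-kB subunit, was at 29.1 and 71 CPM (-1.20; -1.06).

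**Figure D5:**
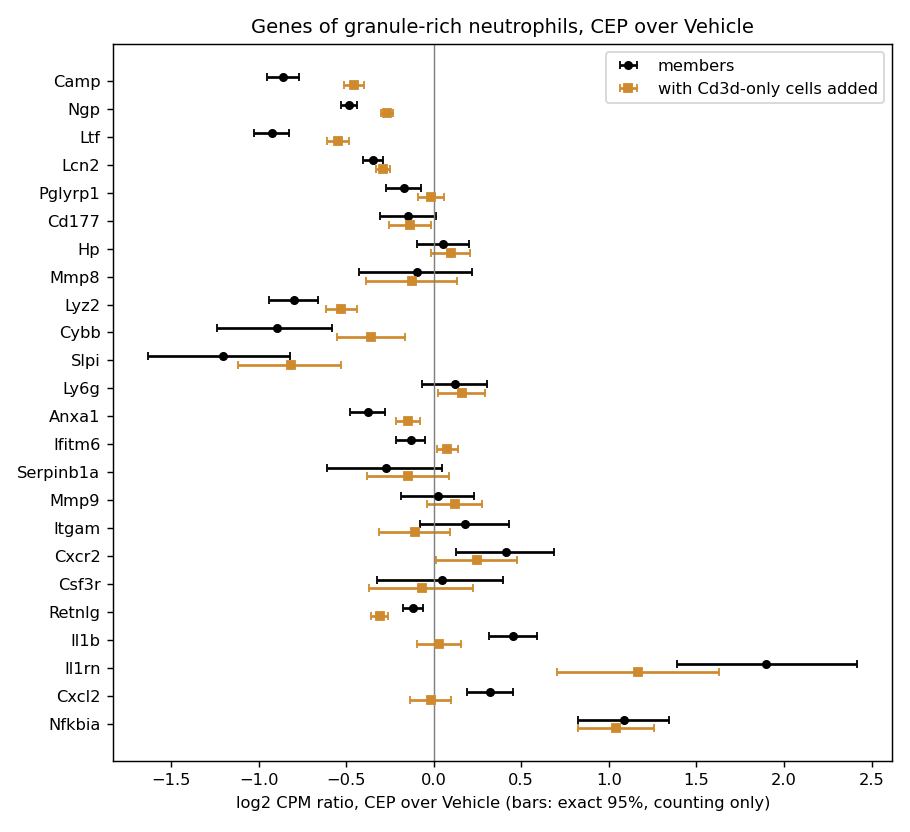
Log2 CPM ratio, CEP over Vehicle (x), of 24 genes (y) in members (black circles) and with the cells left out for Cd3d UMIs alone added (orange squares), with exact conditional intervals as bars. Most granule genes at the top lie left of 0. With those cells added, Camp moves from -0.86 to -0.46 and Cybb from -0.90 to -0.36. Hp in members lies right of 0, and the member intervals of Hp, Mmp8 and Cd177 include 0. Il1rn and Nfkbia stay right of 0 with the added cells, at 1.16 and 1.04.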

How the data were processed

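The deposited files hold raw UMI counts per gene and barcode for 32285 gene models, with no normalization, per the file headers. The submitters' processing notes give mm10 as the build and Cell Ranger 5.0.1 as the tool, whereas the file headers name version 7.1.0 of it. The kit was a droplet 3′ kit, per the labels' protocols. The CEP library had 9621 and the Vehicle library 9989 barcodes, of about 30000 loaded cells.

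UMIs were summed over members per library and scaled to 1000000 (CPM), with exact Poisson intervals for levels, exact conditional binomial intervals for ratios (0.5 UMI added to each sum for the point value), Clopper-Pearson intervals for shares and a log-normal interval for their ratio. Members held 240521 UMIs in CEP and 647510 in Vehicle. List medians cover genes with at least 50 UMIs, and counts of past-threshold genes use 1.5-fold between libraries and 2-fold between cell groups. Of genes named outside the lists, the 10 highest and 10 lowest between libraries (at least 100 UMIs, interval leaving out 1, and CPM at least 0.5 of that of all other kept cells) and the 15 highest and 15 lowest against other neutrophils were taken. Scrublet's automatic limit marked 1 cell in each library, so cells above the limit of the highest 8% of scores (702 and 778) counted as likely doublets; they stayed in except as an alternative. Ratios were checked on simulated counts. Values of some single list members are not reported here. Members, lists and rules were chosen with earlier results of these data known. Python 3.11.15 was used with scanpy 1.11.5 (Scrublet), scipy 1.17.1, matplotlib 3.10.9, pandas 2.3.3 and numpy 2.4.6.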

Additional observations from a re-analysis of the deposited data

How the results depend on the processing

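The lower share in CEP kept its direction under all 10 alternatives. Allowing Cd3d UMIs, using Ptprc-positive cells as denominator, and comparing with deeper or Ccl3- and Ccl4-low neutrophils were chosen after seeing the data. Between libraries, members thinned to 1000 UMIs gave list medians of -0.12 for specific granule genes and 0.16 for immature stage genes, with 25 genes higher and 15 lower by 1.5-fold of 264 tested (9.47% and 5.68%), against 137 and 98 of 1699; genes with at least 20 UMIs gave -0.56 for specific granules, with 459 and 344 of 3294 (13.9% and 10.4%). With the CEP bands weighted to the Vehicle make-up, the medians were -0.20 for specific granule, -0.20 for type I interferon, -0.08 for mature, -0.17 for class I, 0.01 for NF-kB and -0.56 for interferon-gamma genes, so 4 of these changed sign. The sign of the immature stage, proliferation, trafficking, mature, type I interferon, class I and NF-kB medians changed with Cd3d-only cells added. As means of per-cell CPM, the mature, type I interferon and class I medians also changed sign, to -0.02, -0.03 and -0.02. Leaving out likely doublets gave -0.12 for class I genes.

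Against other neutrophils in CEP, dropping the S100 minimum gave specific granule 2.24, gelatinase 0.46, immature stage 2.13, proliferation -0.24, mature -0.28 and stress -1.47. Cells of at least 3000 UMIs gave 1.51, 0.47, 2.0, -0.30 and -0.26 for the first 5 of these lists, and -0.18 for trafficking. Cells with under 3 Ccl3 and Ccl4 UMIs gave proliferation -0.21 and inflammatory -0.83, and Cd3d UMIs allowed gave specific granule 2.12, immature stage 3.19, mature -0.86 and inflammatory -2.28. The proliferation median, 0.78 with the main comparison cells, thus changed sign, but these medians do not cover the same genes. Measured genes numbered 6 in the main comparison, 21 without the S100 minimum and 3 with either deep or Ccl-low cells. In Vehicle, cells of at least 3000 UMIs gave specific granule 1.39, gelatinase 0.42, immature stage 2.46, trafficking -0.69, tumour-associated -1.83, oxidase 0.73, inflammatory -1.93 and stress -1.32. Ccl-low cells gave tumour-associated -1.73 and inflammatory -2.0, Cd3d UMIs allowed gave specific granule 2.29 and immature stage 3.63, and leaving out likely doublets gave specific granule 2.34. The causes were not tested.

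No paired analysis was possible because each group is 1 library. Thinning left fewer than 3 measured genes for the proliferation, interferon-gamma, class I and NF-kB lists, which have no value there. With 240521 CEP UMIs in all members, ratios of low genes have wide intervals, and some rest on 1 cell.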
